A study of Mus musculus with 27 samples.

Results

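The genes described here belong to the unfolded protein response and the integrated stress response. They were taken by name from a list of 33 genes that was chosen with earlier results of these data known. All 33 were found among the 48440 genes of the bulk count files and in both single-cell matrices, and all 33 passed the filter on low counts that left 12939 genes for testing. They form 2 arms. The ATF4 arm holds 15 genes: Atf4, Ddit3, Ddit4, Trib3, Asns, Chac1, Psat1, Phgdh, Sesn2, Shmt2, Mthfd2, Slc3a2, Slc7a5, Slc7a11 and Ppp1r15a. The XBP1/ATF6 arm holds 18 genes: Hspa5, Hsp90b1, Dnajb9, Dnajb11, Dnajc3, Herpud1, Xbp1, Sdf2l1, Creld2, Manf, Pdia3, Pdia4, Pdia6, Calr, Canx, Edem1, Syvn1 and Sel1l.

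As background, cells sense misfolded proteins in the endoplasmic reticulum (ER) through the membrane proteins IRE1, ATF6 and PERK. IRE1 splices the Xbp1 transcript into the form that encodes an active transcription factor, and ATF6 is cut to release another. Both switch on ER chaperones, protein disulfide isomerases and the machinery that removes misfolded proteins. PERK, like the related kinases that sense amino acid shortage, viral RNA or loss of haem, phosphorylates the initiation factor eIF2, which slows general translation while favouring translation of Atf4. ATF4 then switches on genes for amino acid import and synthesis, redox balance and, through CHOP (Ddit3), cell death. In tumour macrophages these responses are known to accompany nutrient shortage and polarisation. Because Atf4 is controlled in large part by translation, and Xbp1 by splicing, the transcript counts used here measure neither protein activity nor the spliced share of Xbp1.

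The study compared Ogt-flox Lyz2-cre mice (KO) with Ogt-flox mice (WT), both bearing tumours of MC38, a mouse colon carcinoma line. The Ogt product attaches single N-acetylglucosamine residues (O-GlcNAc) to proteins of the nucleus and cytosol. Tumour-associated macrophages of 3 KO and 3 WT samples gave bulk RNA, and CD45+ immune cells gave 1 single-cell matrix per genotype, taken as 1 sample. EGR2 CUT&Tag of macrophages came as 1 peak list per genotype and chromatin accessibility (ATAC) as 1 merged list. Both genotypes carry the floxed allele. Lyz2-cre drives Cre from the lysozyme locus, which is active in monocytes and neutrophils as well as in macrophages, and the insertion disrupts Lyz2 itself. Age, sex and pooling of animals were not given in the labels, so the p-values below measure the spread between these 6 libraries, which may be technical.

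The promoters of the 2 arms carried different short elements. These are reference sequences, and the genes were listed by response while the elements are named for the same responses. The split between the arms is therefore not a finding of these data. RefSeq promoters (GRCm38.p6, 250 bases before to 50 bases after the gene start) were found for 31 of the 33 genes, and Slc7a5 and Manf had no entry. The ER stress element, searched as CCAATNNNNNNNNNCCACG on both strands, stood in 8 of 17 promoters of the XBP1/ATF6 arm and in 0 of 14 of the ATF4 arm, against 0.119% of 32851 mouse promoters of the same length. Its variant ERSE-II, searched as ATTGG, any 1 base and CCACG, stood in 2 of 17 and 0 of 14, against 0.0365%. The C/EBP-ATF response element (CARE), the composite site bound by ATF4 and C/EBP factors, was searched as TGATGNAA and stood in 4 of 14 promoters of the ATF4 arm and in 1 of 17 of the XBP1/ATF6 arm, against 3.97%. The unfolded protein response element, searched only as the exact letters TGACGTGG, stood in 0 of the 31 promoters, against 0.676%. Variant letters were not searched for any of these elements. None of the matches found overlapped another. The matches are spelled out below 5′ to 3′ in the orientation of the motif, with the fixed letters in capitals and, for CARE, 6 bases on either side. First come the ER stress elements. Of their genes, Hspa5, Hsp90b1, Dnajc3, Herpud1, Creld2, Calr and Syvn1 were lower in bulk RNA of the KO macrophages at an adjusted p below 0.05. Pdia6 and Dnajb11 were higher at that threshold, and Canx did not pass it.
Hspa5 ERSE (chr2:34772025-34772043, + strand): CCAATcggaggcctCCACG
Hsp90b1 ERSE (chr10:86705638-86705656, - strand): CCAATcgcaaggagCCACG
Hsp90b1 ERSE (chr10:86705533-86705551, + strand): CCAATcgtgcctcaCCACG
Dnajb11 ERSE-II (chr16:22857852-22857862, + strand): ATTGGcCCACG
Dnajc3 ERSE (chr14:118937827-118937845, + strand): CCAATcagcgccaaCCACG
Herpud1 ERSE-II (chr8:94386377-94386387, + strand): ATTGGgCCACG
Creld2 ERSE (chr15:88819520-88819538, - strand): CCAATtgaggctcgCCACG
Pdia6 ERSE (chr12:17266491-17266509, + strand): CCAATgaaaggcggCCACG
Calr ERSE (chr8:84847075-84847093, + strand): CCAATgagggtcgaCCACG
Canx ERSE (chr11:50325800-50325818, - strand): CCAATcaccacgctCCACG
Syvn1 ERSE (chr19:6046532-6046550, + strand): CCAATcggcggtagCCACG
The CARE matches follow, which include genes that were higher (Chac1) and lower (Asns, Slc7a11, Herpud1) in bulk RNA of the KO macrophages.
Trib3 CARE (chr2:152344033-152344052, + strand): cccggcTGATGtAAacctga
Asns CARE (chr6:7693219-7693238, - strand): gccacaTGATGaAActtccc
Chac1 CARE (chr2:119351043-119351062, - strand): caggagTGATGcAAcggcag
Slc7a11 CARE (chr3:50443666-50443685, - strand): tgtggcTGATGcAAacctgg
Slc7a11 CARE (chr3:50443647-50443666, + strand): gcatgaTGATGcAAattctc
Herpud1 CARE (chr8:94386311-94386330, - strand): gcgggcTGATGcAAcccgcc
Herpud1, an ER membrane protein of the removal machinery, was the gene with both an ERSE-II and a CARE match. Slc7a11, the cystine importer xCT, had 2 CARE matches on opposite strands, lying 66 and 47 bases before its start. Its promoter is shown whole, with those letters in capitals, because Slc7a11 gave the largest fall among the transporters.
Slc7a11 (chr3:50443564-50443863, - strand): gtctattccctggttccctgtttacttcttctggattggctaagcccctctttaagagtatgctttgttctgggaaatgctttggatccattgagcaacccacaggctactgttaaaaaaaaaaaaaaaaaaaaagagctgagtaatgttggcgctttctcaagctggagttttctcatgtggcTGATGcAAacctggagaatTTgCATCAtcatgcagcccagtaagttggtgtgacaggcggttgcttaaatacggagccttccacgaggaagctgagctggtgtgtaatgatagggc
The promoter of Hspa5, which encodes the chaperone BiP, is shown with its exact match to the searched ER stress element in capitals, 65 bases before the start.
Hspa5 (chr2:34771840-34772139, + strand): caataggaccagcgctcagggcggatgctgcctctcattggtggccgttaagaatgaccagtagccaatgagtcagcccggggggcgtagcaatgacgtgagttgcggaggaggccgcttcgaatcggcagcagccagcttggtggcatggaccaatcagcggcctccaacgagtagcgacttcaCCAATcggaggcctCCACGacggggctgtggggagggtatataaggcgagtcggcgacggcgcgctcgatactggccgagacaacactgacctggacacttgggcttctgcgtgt

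The bulk libraries held 11468556 to 32406170 counts in KO and 7032540 to 12439582 in WT. Bulk levels are CPM, the count of a gene scaled by its library's TMM-adjusted size, a scaling that assumes most genes do not differ. Ogt averaged 34.7 ± 3.86 CPM in KO and 56.3 ± 6.24 CPM in WT (SD, n = 3 each), and Lyz2 averaged 84.0 CPM in KO and 3882 CPM in WT. Markers of other cells also differed between the groups. Summed over 15 T and NK cell markers, KO libraries held 478 to 495 CPM and WT libraries 297 to 306 CPM, and 11 of the 14 tested rose while 1 fell. Summed over 7 neutrophil markers, KO libraries held 107 to 116 CPM and WT libraries 141 to 154 CPM, with 1 rise (Csf3r) and 4 falls. Mmp9 differed most in that sum, at 9.46 CPM in KO and 52.2 CPM in WT, and the defining S100a8 averaged 0.456 CPM in KO and 1.07 CPM in WT (adjusted p = 0.128). Monocyte markers summed to 1125 to 1156 CPM in KO and 721.7 to 744 CPM in WT, and 8 of 10 rose. Markers of type 1 dendritic cells (cDC1) summed to 593.5 to 623.5 CPM in KO and 383.7 to 408.5 CPM in WT, and 4 of 5 rose. Migratory dendritic markers summed to 171 to 179 CPM in KO and 440 to 455 CPM in WT, and all 5 fell. The 19 dissociation and immediate early genes, which include Atf3, summed to 32490 to 33390 CPM in KO and 38750 to 39410 CPM in WT, and 15 of them fell. The part of these differences in the results below was not tested. In bulk RNA, fewer cells of a type and less RNA per cell cannot be told apart.

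In bulk RNA of KO macrophages the stress response genes moved in both directions and mostly by small amounts, with more falls than rises. In the macrophage-like single cells described below, 24 of 32 had a KO over WT ratio above 1 and 8 below it. Atf4 itself, Xbp1, the import gene Slc7a11, and the ER proteins Herpud1, Manf and Sel1l were lower by 1.26- to 1.55-fold, while the disulfide isomerase Pdia3 and the low-abundance Chac1 and Phgdh were higher. Of the 33 genes, 5 rose (15.2%) and 16 fell (48.5%) at an adjusted p below 0.05, and 12 did neither. Over all 12939 genes tested, 37.7% were called, as 18.8% rose and 18.9% fell. Among the 3762 genes with a mean of at least 50 CPM, 27.7% rose and 31.8% fell, and among the 29 listed genes at that level 3 rose (10.3%) and 15 fell (51.7%). The split depended on scaling. With library totals in place of TMM, the median of all genes stood at 0.09 on the log2 scale, all genes split into 3370 higher and 1757 lower against 2432 higher and 2442 lower with TMM, and the listed genes into 7 higher and 10 lower. Of the 21 genes called, 14 kept their call under all 12 alternative settings, and the other 7 (Sesn2, Mthfd2, Hspa5, Dnajb11, Creld2, Calr and Syvn1) each changed by no more than 0.21 on the log2 scale and lost the call under at least 1 of them.

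**Figure D1:**
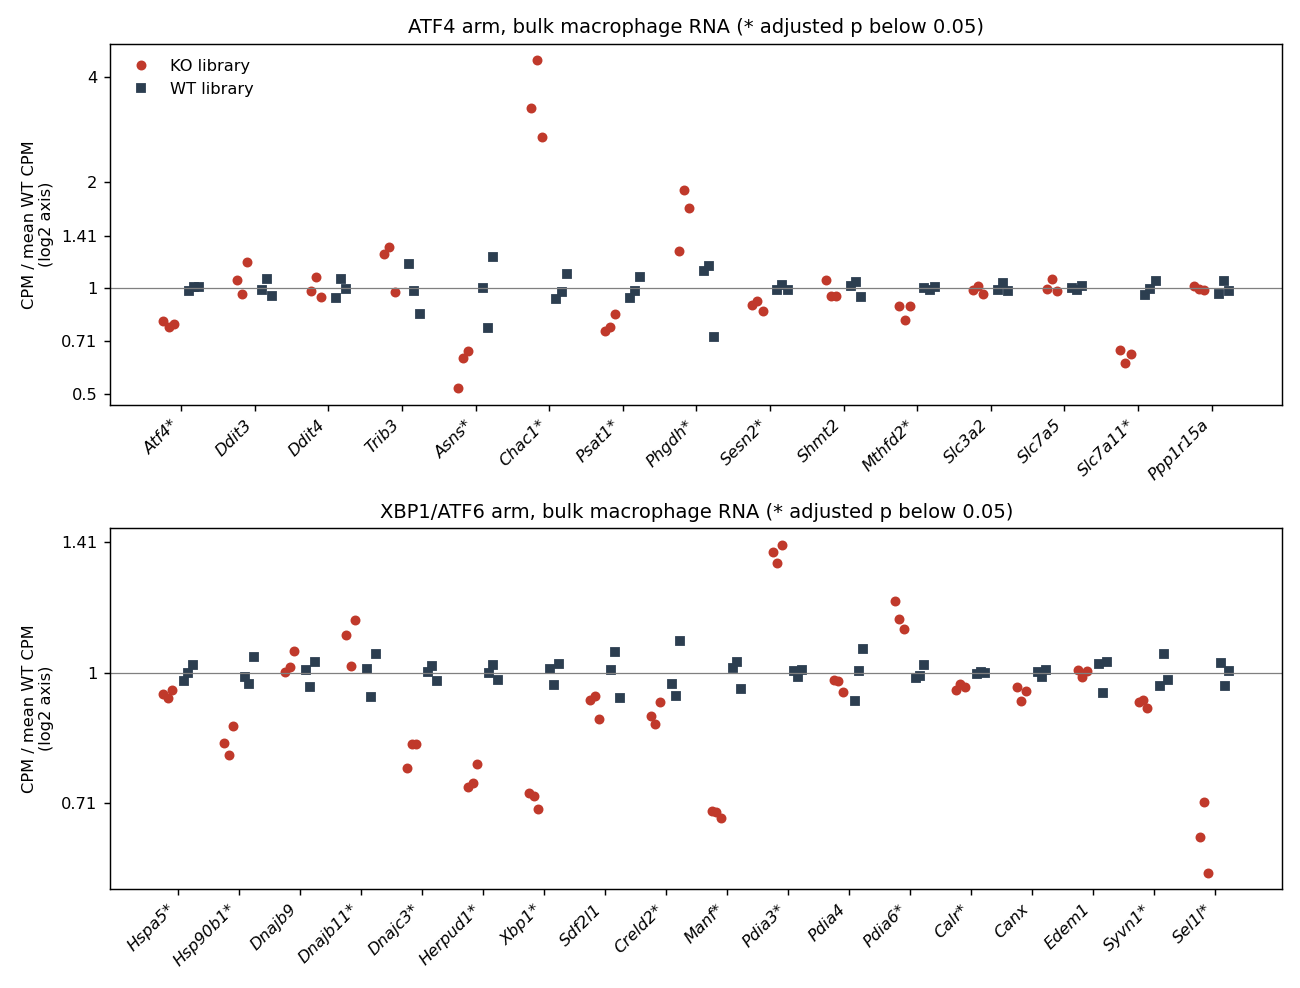
Each point is 1 bulk library, with the 3 KO libraries left of the 3 WT libraries for each gene, and the vertical axis is CPM divided by the mean WT CPM of that gene, on a log2 axis. KO libraries of Atf4, Slc7a11, Herpud1, Xbp1, Manf and Sel1l all lie below those of WT, those of Chac1, Phgdh and Pdia3 all lie above, and stars mark an adjusted p below 0.05.

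In the ATF4 arm 2 genes rose (13.3%) and 6 fell (40%), against 18.8% and 18.9% of all genes. Among its 11 genes of at least 50 CPM, 0 rose and 5 fell (45.5%), against 27.7% and 31.8% of all genes at that level. The median log2 fold change of the arm was -0.02, against 0.00 over all genes. Atf4, the transcription factor of this arm, had 544, 523 and 535 CPM in the KO libraries, against 665, 679.6 and 683 CPM in the WT libraries. The groups did not overlap, as was so for 23.3% of all genes in this direction. Atf4 fell by 0.34 on the log2 scale (SE 0.027, adjusted p = 1.971e-17). Ddit3, which encodes the ATF4 target and factor CHOP, had 68.6, 62.4 and 77.1 CPM in KO and 63.9, 69.0 and 61.8 CPM in WT. These groups overlapped, and the log2 fold change of 0.10 did not pass the test (adjusted p = 0.35, 95% interval -0.06 to 0.25). The exons of Ddit3 overlap those of Mars and Gm4189, and the counting is not stated to use strand. Trib3, a pseudokinase that restrains ATF4 (log2 fold change 0.22, adjusted p = 0.468), Ppp1r15a, the GADD34 subunit that removes the phosphate from eIF2 (0.00, adjusted p = 0.953), and Ddit4, an inhibitor of mTORC1 (0.01, adjusted p = 0.971), did not pass either. Ppp1r15a, whose exons overlap those of Tulp2, was called higher when library totals were used (0.09, adjusted p = 0.00405).

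The transporters of the arm did not move together. Slc7a11, which imports cystine in exchange for glutamate, had 60.6, 55.9 and 59.2 CPM in KO, against 87.3, 90.5 and 95.7 CPM in WT. Every KO library lay below every WT library, and the gene fell by 0.63 on the log2 scale (SE 0.071, adjusted p = 1.71e-11). The summed neutrophil markers were also lower in these KO libraries, with 1 of 7 rising and 4 falling. Mmp9 differed most in that sum (9.46 CPM in KO and 52.2 CPM in WT), while Csf3r was higher in KO (98.4 against 83.0 CPM). The part of these markers in the fall of Slc7a11 was not tested. The partner chain of Slc7a11, Slc3a2 (log2 fold change -0.02, adjusted p = 0.617) and the other light chain of that partner, the leucine transporter Slc7a5 (0.02, adjusted p = 0.821), did not pass the test. For Slc3a2 the sign turned with library totals, to 0.07 (adjusted p = 0.0219).

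The enzymes of amino acid synthesis split. Asns, asparagine synthetase, had 7.02, 8.57 and 8.94 CPM in KO, against 13.6, 10.4 and 16.5 CPM in WT, and fell by 0.74 on the log2 scale (SE 0.19, adjusted p = 0.001). Its groups did not overlap, but the level was low and the WT libraries were spread. Phgdh, which makes the first committed step from glycolysis into serine, had 14.4, 21.4 and 19.0 CPM in KO, against 12.6, 13.04 and 8.20 CPM in WT, and rose by 0.65 (SE 0.17, adjusted p = 0.0011). Psat1, the next enzyme of the same route, had 44.8, 45.9 and 49.97 CPM in KO, against 55.5, 58.3 and 63.8 CPM in WT, and fell by 0.33 (SE 0.085, adjusted p = 0.00111). In bulk RNA, neighbouring steps of serine synthesis differed in opposite directions, with no overlap of the groups for either gene. In the macrophage-like single cells described below, both ratios were above 1 (Phgdh 1.035, interval 0.776 to 1.383, Psat1 1.204, interval 1.036 to 1.401). T and NK markers were higher in the KO libraries, and their part in the rise of Phgdh was not tested. Of the mitochondrial folate enzymes, Mthfd2 fell by 0.21 (adjusted p = 0.00903), a call lost without the second KO library (adjusted p = 0.0741) and with library totals (adjusted p = 0.144). Shmt2, whose exons overlap those of Ndufa4l2, gave -0.02 (adjusted p = 0.871).

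Among the effectors, Chac1 gave the largest change of all 33 genes. Chac1, which degrades glutathione, had 3.48, 4.75 and 2.87 CPM in KO, against 0.994, 1.04 and 1.17 CPM in WT, resting on 116, 56 and 36 counts in KO and 12, 8 and 8 counts in WT. It rose by 1.79 on the log2 scale (SE 0.41, adjusted p = 0.000313), and the groups did not overlap. It was also the lowest gene of the list per length, at 2.26 CPM per kilobase of exon in KO and 0.653 in WT. Sesn2, a stress-induced inhibitor of mTORC1, fell by 0.16 (adjusted p = 0.0284), and 6 of the 12 alternatives ended that call.

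In the XBP1/ATF6 arm 3 genes rose (16.7%) and 10 fell (55.6%), with a median log2 fold change of -0.10. Over all genes 18.8% rose and 18.9% fell. All 18 genes of the arm averaged at least 50 CPM, a level at which 27.7% of all genes rose and 31.8% fell. Xbp1, the transcription factor, had 256, 254 and 246 CPM in KO, against 355, 341 and 359.7 CPM in WT. The groups were well apart, and Xbp1 fell by 0.48 on the log2 scale (SE 0.035, adjusted p = 2.06e-19). The spliced and unspliced forms were counted together.

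The luminal chaperones and their helpers gave log2 fold changes from -0.30 to 0.13. Hspa5, which encodes BiP and was the most abundant of the 33 genes per length (751 CPM per kilobase in KO and 794.6 in WT), had 3175, 3142 and 3212 CPM in KO, against 3289, 3361 and 3431 CPM in WT. The groups did not overlap, yet the fall was 0.08 on the log2 scale (SE 0.017, adjusted p = 4.54e-05), and with library totals the value turned to 0.01 (adjusted p = 0.80). Hsp90b1, the ER form of HSP90, fell by 0.26 (adjusted p = 2.155e-11), with exons overlapping those of 1810014B01Rik, Gm15344 and Gm25745. Among the cochaperones of BiP, Dnajc3 fell by 0.30 (adjusted p = 1.908e-06) and Dnajb11 rose by 0.13 with overlapping groups (adjusted p = 0.0415), a call that 5 alternatives ended. Dnajb9 (0.04, adjusted p = 0.637) and Sdf2l1 (-0.12, adjusted p = 0.0597) did not pass, although Sdf2l1 did so without the third WT library (adjusted p = 0.0157) and with counts taken as read pairs (adjusted p = 0.0477). The lectin chaperones Calr (-0.05, adjusted p = 0.0449) and Canx (-0.07, adjusted p = 0.103) lay on either side of the threshold. The call for Calr was lost when any 1 library was left out, and its sign turned with library totals, to 0.03.

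The genes for the removal of misfolded proteins and the secreted ER stress factors gave log2 fold changes from -0.62 to 0.00. Herpud1 had 528, 533 and 562 CPM in KO, against 712, 727.5 and 699 CPM in WT, and fell by 0.40 (SE 0.028, adjusted p = 1.625e-20). Sel1l, the adaptor of the ubiquitin ligase that marks ER proteins for degradation, had 98.2, 107.6 and 89.3 CPM in KO, against 154.9, 146 and 152 CPM in WT, and fell by 0.62 (SE 0.057, adjusted p = 6.052e-15). For both genes every KO library was below every WT library. Syvn1, the ligase HRD1 that works with Sel1l, fell by 0.12 (adjusted p = 0.0233, lost under 6 alternatives), and Edem1, which hands over misfolded glycoproteins, gave 0.00 (adjusted p = 0.996). Manf, a secreted factor that protects cells from ER stress, had 140.5, 140.2 and 138 CPM in KO, against 204.5, 208 and 194 CPM in WT, and fell by 0.53 (SE 0.046, adjusted p = 4.068e-16). Its groups were far apart, but its exons overlap those of Dcaf1, Rbm15b and 4930524O07Rik. Creld2, another secreted product of ER stress, fell by 0.15 (adjusted p = 0.0403), and 7 alternatives ended the call.

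Of the 3 disulfide isomerases in the arm 2 rose. Pdia3, known as ERp57, which works with calnexin and calreticulin and in loading of MHC class I, had 994.9, 967 and 1014 CPM in KO, against 727, 716 and 730.1 CPM in WT. This was the change with the smallest adjusted p of the list, a rise of 0.45 on the log2 scale (SE 0.025, adjusted p = 6.875e-26), with exons overlapping those of Catsper2. Pdia6 rose by 0.22 (adjusted p = 6.369e-08), with exons overlapping those of Atp6v1c2, and Pdia4 gave -0.04 (adjusted p = 0.668). Isomerase family genes outside the arm, named after their values were seen, did not rise. P4hb, the main protein disulfide isomerase, averaged 716 CPM in KO and 794 CPM in WT and fell by 0.15 (adjusted p = 2.766e-06), Txndc5 fell by 0.40 (adjusted p = 2.095e-06) and Txndc11 by 0.32 (adjusted p = 0.000222), while Pdia5 gave -0.51 (adjusted p = 0.0954).

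Other genes of the pathway were taken from lists chosen with earlier results of these data known. Of the 40 ER companions tested, which hold further folding, export and degradation genes, 3 rose (7.5%) and 19 fell (47.5%). Over all genes 18.8% rose and 18.9% fell. The median log2 fold change of these companions was -0.20. With library totals 7 rose and 15 fell. Ero1l, the oxidase that recharges disulfide isomerases, had 98.0, 102.1 and 112 CPM in KO, against 169.4, 163 and 170.2 CPM in WT, and fell by 0.69 (SE 0.053, adjusted p = 2.892e-18). Cnpy2, an ER saposin-like protein, had 20.7, 14.4 and 22.5 CPM in KO, against 29.98, 33.1 and 24.9 CPM in WT, and fell by 0.60 (adjusted p = 0.000142). No KO library of either gene reached the WT range. Of the 28 ATF4 companions tested, 6 rose and 6 fell (21.4% each way, against 18.8% and 18.9% of all genes), or 8 higher and 3 lower with library totals. The 6 that rose were the aminoacyl-tRNA synthetases Gars, Wars, Sars, Tars and Eprs and the secreted cytokine Gdf15, and the 6 that fell were Atf3, Atf5, Cebpg, Slc1a5, Cdkn1a and Jdp2. The other 7 synthetases of that list (Aars, Yars, Nars, Iars, Lars, Mars1 and Cars) did not pass the test. Most of these were named after their values were seen. Gdf15 had 45.4, 48.0 and 55.1 CPM in KO, against 29.1, 30.5 and 30.7 CPM in WT, and rose by 0.71 (SE 0.099, adjusted p = 1.193e-08).

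Of the 21 sensors and eIF2 factors, 5 rose (23.8%) and 3 fell (14.3%), against 18.8% and 18.9% of all genes. The ER sensors, named after their values were seen, differed in direction. Ern1, which encodes IRE1, rose by 0.38 (97.5 ± 3.74 CPM in KO and 74.6 ± 0.589 CPM in WT, SD, n = 3 each, adjusted p = 1.666e-06). Atf6 rose by 0.24 (adjusted p = 2.367e-05), and Eif2ak3, which encodes PERK, fell by 0.32 (adjusted p = 0.00684). Eif2b4, a subunit of the exchange factor that eIF2 phosphorylation inhibits, had 28.3, 25.1 and 31.4 CPM in KO, against 14.6, 11.7 and 19.3 CPM in WT, and rose by 0.91 (adjusted p = 1.269e-07). Its groups did not overlap, and its exons overlap those of Snx17.

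Single-cell data placed the same genes in macrophages apart from other cells. After filtering and removal of called doublets, 9767 KO and 9712 WT cells remained, and 23 barcodes occurred in both matrices. Clusters were made without the 33 genes. Macrophage-like cells numbered 2685 in KO and 2783 in WT, in 5 clusters named from their markers, with median UMI counts of 6212 in KO and 5986 in WT. With 1 matrix per genotype there is no test, and values are summed UMIs scaled to CPM within each group of cells, with 95% Poisson intervals that cover counting error only.

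In macrophage-like cells the ATF4 arm had a ratio near 1 between genotypes and the XBP1/ATF6 arm a ratio slightly above it. The ATF4 arm summed to 1470 CPM in KO (1454 to 1486) and 1482 in WT (1466 to 1499), a ratio of 0.992. The XBP1/ATF6 arm summed to 4974 in KO (4945 to 5003) and 4664 in WT (4636 to 4693), a ratio of 1.07. Over all genes the median ratio was 1.06, and centred on it the arms stood at 0.937 and 1.01. Of the 32 genes with at least 100 UMIs, 24 had a ratio above 1 and 8 below it. Only 1 of the 32 was at least 1.5-fold apart, against 8.93% of 10997 genes. This was Trib3, with 5.06 CPM in KO and 3.02 in WT (114 UMIs in KO and 65 in WT, ratio 1.675, interval 1.224 to 2.307). In these cells T and NK markers summed to 234.1 CPM in KO and 157 CPM in WT, and neutrophil markers to 84.2 CPM in KO and 165 CPM in WT. Dissociation and immediate early genes summed to 21190 CPM in KO and 29650 CPM in WT. Their part in the ratios was not tested.

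Bulk and single-cell values pointed the same way for part of the list. Xbp1 had 140.5 CPM in KO macrophage-like cells and 169 CPM in WT (ratio 0.833). Sel1l had 63.7 CPM in KO and 76.7 CPM in WT (0.830), and Atf4 had 302 CPM in KO and 319.7 CPM in WT (0.946). Pdia3 had 399 CPM in KO and 284 CPM in WT (1.403), and Pdia6 had 264 CPM in KO and 211 CPM in WT (1.254). These values lay on the side of the bulk change. Manf (348.5 CPM in KO and 351 CPM in WT, ratio 0.993) and Herpud1 (212 CPM in KO and 222 CPM in WT, ratio 0.956) were closer to level. Slc7a11 went the other way, with 132.5 CPM in KO and 102 in WT, a ratio of 1.302 (1.232 to 1.377). Psat1 (ratio 1.204, interval 1.036 to 1.401) and Mthfd2 (1.168, interval 1.08 to 1.263), which fell in bulk, also had ratios above 1. Phgdh, which rose in bulk, was near level (1.035, interval 0.776 to 1.383). The ratio for Slc7a11 was above 1 in cluster 7 (1.234), cluster 12 (1.087) and cluster 13 (1.352) and below it in cluster 6 (0.898). Of the 16 genes that fell in bulk, 6 (37.5%) had a ratio below 1, against 59.0% of 2140 genes that fell. Set against the median of all genes, 10 lay below it (62.5%, against 72.9%). All 4 of the bulk rises with enough UMIs had a ratio above 1, against 82.3% of 2113 genes, and 3 of them (75.0%, against 71.7%) lay above the median of all genes. The fifth, Chac1, had 44 UMIs in KO and 34 in WT.

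**Figure D2:**
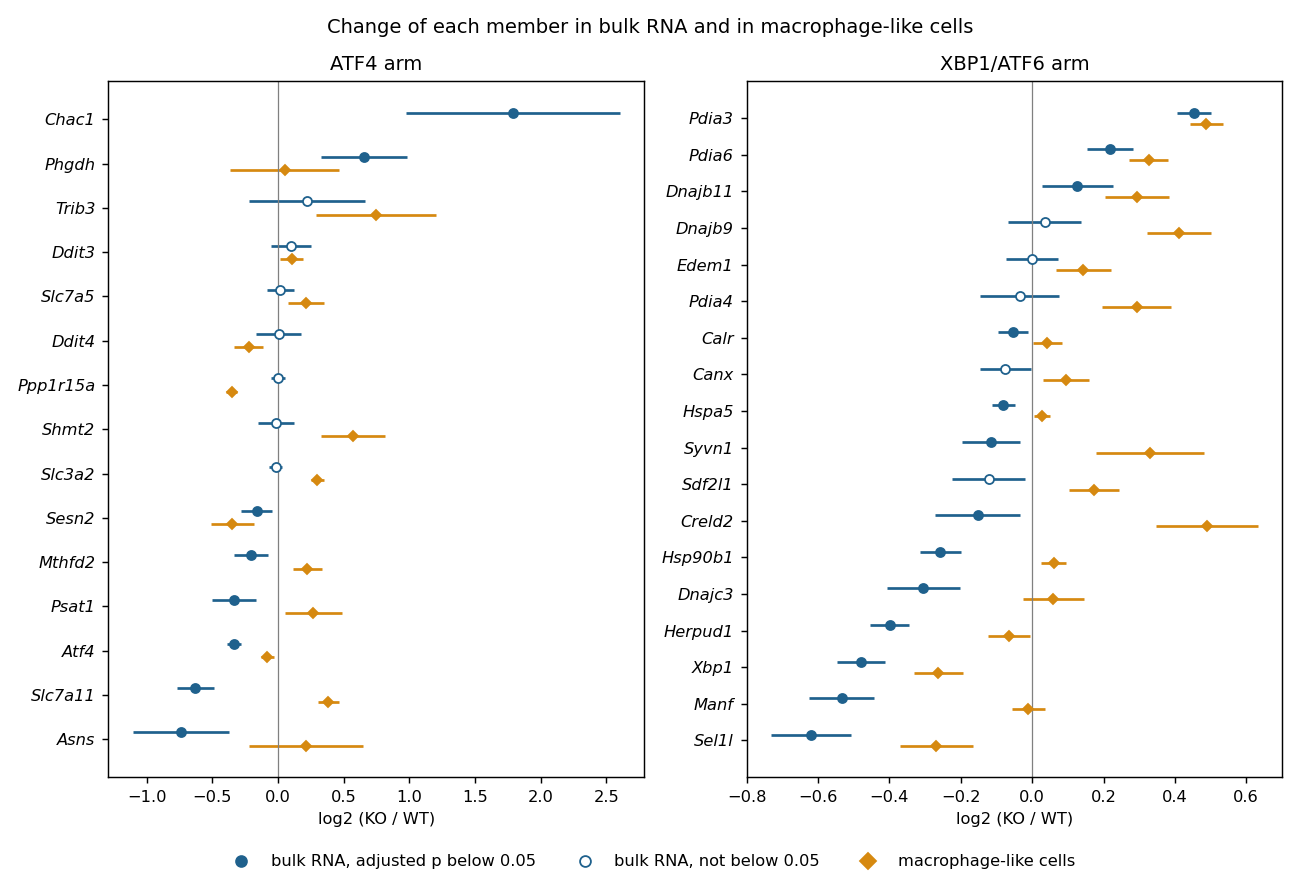
For each gene the circle is the bulk log2 fold change (KO over WT, filled where the adjusted p was below 0.05) and the diamond is the log2 ratio of CPM in macrophage-like cells, both with 95% intervals, those of the cells covering counting error only. Pdia3 lies right of 0 and Xbp1 and Sel1l left of 0 in both, Slc7a11 lies left in bulk and right in the cells, and Chac1 has no diamond because it had fewer than 100 UMIs.

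Several of the genes ranged widely between the macrophage clusters. Of the 6 with the widest range, Sesn2 ran from 2.37 CPM in cluster 3 to 41.3 in cluster 7 with both matrices pooled, the first on 2 UMIs in KO and 0 in WT. Slc7a11 ran from 13.04 in cluster 3 to 202 in cluster 12, whose leading genes include Arg1, Pf4 and Mmp12, the low value resting on 7 UMIs in KO and 4 in WT. Ppp1r15a ran from 39.1 in cluster 3 to 530.4 in cluster 7, Sel1l from 14.2 to 97.7 in the same clusters, and Ddit4 from 11.9 in cluster 3 to 79.7 in cluster 12. Phgdh ran the other way, with 15.4 in cluster 3 (8 UMIs in KO and 5 in WT) and 2.20 in cluster 7 (8 in KO and 12 in WT). The cluster 3 values of Ppp1r15a (17 UMIs in KO and 16 in WT), Sel1l (6 in each) and Ddit4 (6 in KO and 4 in WT) rest on few UMIs too. Cluster 3, led by Ccl12, Cd63 and C1qa, had a median of 2390 UMIs per cell. It was lowest for 15 of the 33 genes, and cluster 7 was lowest for 14. The dissociation and immediate early genes summed to 2538 in KO and 3934 in WT in cluster 3, against 29590 in KO and 41090 in WT in cluster 7. Their part in these ranges was not tested. Cluster 7 rested on a narrow margin, with a macrophage score of 0.591 against a monocyte score of 0.533. Without it the KO over WT ratios of the arms were 0.995 and 1.06.

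Most genes of both arms had their highest level in another cluster than Atf4. Cluster 6, led by Ccl12, C1qa and Cadm1 and holding 17371 UMIs per cell at the median, was highest for 19 of the 33 genes. These were 7 of the 15 in the ATF4 arm and 12 of the 18 in the XBP1/ATF6 arm. Cluster 7 was highest for 4 of the ATF4 arm, Atf4 included, and for 5 of the XBP1/ATF6 arm, Hspa5 and Dnajb9 among them. The highest cluster was the same in KO and WT for 18 of the 33 genes, 7 of 15 in the ATF4 arm and 11 of 18 in the XBP1/ATF6 arm. Atf4 was highest in cluster 7 in both matrices, at 449 CPM in KO and 432 in WT, and reached 176 in KO and 253 in WT in cluster 6. Some genes stood apart between the genotypes in cluster 6. Pdia3 stood at 699.8 CPM in KO and 402 CPM in WT (ratio 1.741). Creld2 stood at 65.0 in KO and 37.4 in WT (1.739), and Ddit4 at 26.3 in KO and 57.9 in WT (0.454). In cluster 13, led by MHC class II genes, Pdia3 stood at 325 in KO and 313.5 in WT (1.036). Cluster 12 held the most KO and cluster 13 the most WT macrophage-like cells, so ratios over the whole class mix these clusters in different shares.

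**Figure D3:**
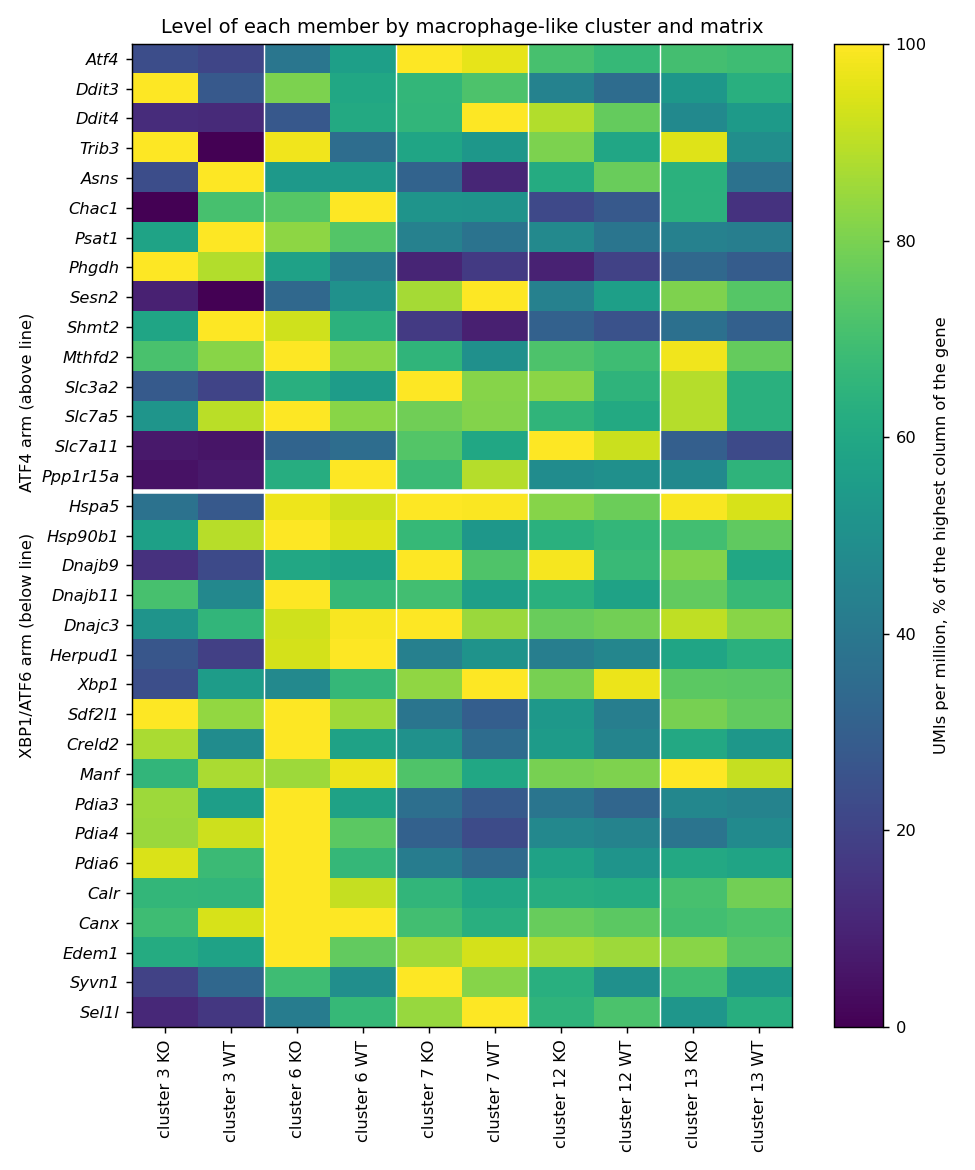
Rows are the 33 genes by arm and columns are the 5 macrophage-like clusters, with KO left of WT, and colour gives CPM as a percent of the gene's highest column. Cluster 3 is low for Atf4, Sesn2, Slc7a11 and Ppp1r15a, and cluster 6 is high for Pdia3, Herpud1 and Canx.

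Across cell classes the arms had different peaks. The ATF4 arm was highest in neutrophil-like cells, at 5933 CPM in KO (5831 to 6036) and 4872 in WT (4764 to 4981), and lowest among classes of over 1000 cells in CD8 T-like cells, at 911 in KO and 952 in WT. Slc7a11 made up much of this, with 3415 in KO and 2612 in WT neutrophil-like cells, against 132.5 in KO and 102 in WT macrophage-like cells. Over both matrices it was lowest in gamma-delta T or ILC-like cells, at 2.05. In NK-like cells, which should lack it, Slc7a11 stood at 2.81 in KO and 3.08 in WT. Ppp1r15a (1367 in KO and 1297 in WT), Ddit3 (270.1 in KO and 281 in WT) and Dnajb9 (256 in KO and 254 in WT) were also highest in neutrophil-like cells, whose median UMI count was 2406. Over both matrices, 6 of the 15 genes of the ATF4 arm had their highest level in neutrophil-like cells. Another 5 (Psat1, Phgdh, Shmt2, Mthfd2 and Slc7a5) had their lowest level there. The XBP1/ATF6 arm was lowest in neutrophil-like cells, at 1929 in KO and 2063 in WT, and 15 of its 18 genes had their lowest level in this class. It was highest in the 51 plasmacytoid-like cells, at 9111 in KO (8635 to 9608) and 7463 in WT (7153 to 7782). In gamma-delta T or ILC-like cells it stood at 5510 in KO and 5031 in WT, above macrophage-like cells.

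**Figure D4:**
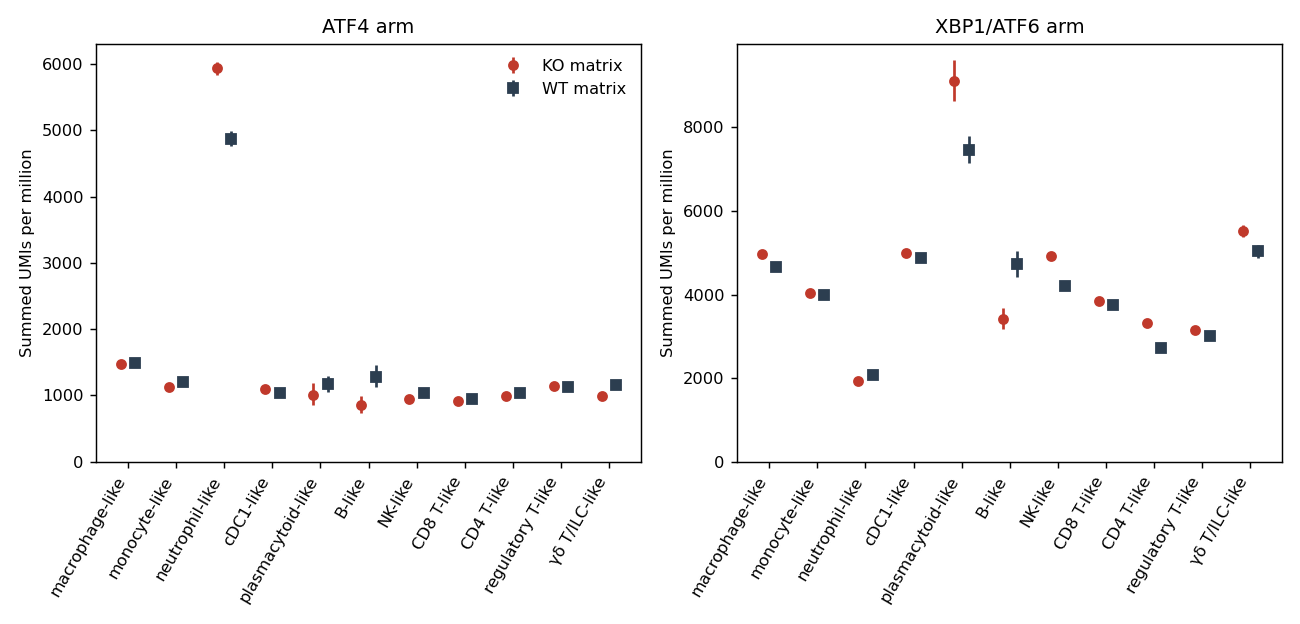
Points give the summed CPM of each arm in each cell class, with KO left of WT and bars for 95% Poisson intervals that cover counting error only. Neutrophil-like cells are highest for the ATF4 arm and lowest for the XBP1/ATF6 arm, and plasmacytoid-like cells are highest for the XBP1/ATF6 arm.

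Macrophage-like cells exceeded the 5 T and NK-like classes pooled in both arms, with 1476 against 998.3 CPM for the ATF4 arm (ratio 1.48) and 4823 against 3864 for the XBP1/ATF6 arm (1.248). Atf4 had its highest value in macrophage-like cells, which include cluster 7. In KO its interval there (295.3 to 309.7 CPM) overlapped those of neutrophil-like cells (269.8 to 315.6 CPM), monocyte-like cells (271.1 to 298.1 CPM) and the few plasmacytoid-like cells. The serine genes ran the other way. Phgdh stood at 65.3 in KO and 87.4 in WT CD8 T-like cells, against 4.57 in KO and 4.42 in WT macrophage-like cells. Psat1 stood at 32.5 in KO and 41.0 in WT CD8 T-like cells, against 17.6 in KO and 14.6 in WT macrophage-like cells. Ddit4 was highest in regulatory T-like cells, at 167.5 in KO and 194.5 in WT. The highest class was the same in both matrices for 25 of the 33 genes.

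**Figure D5:**
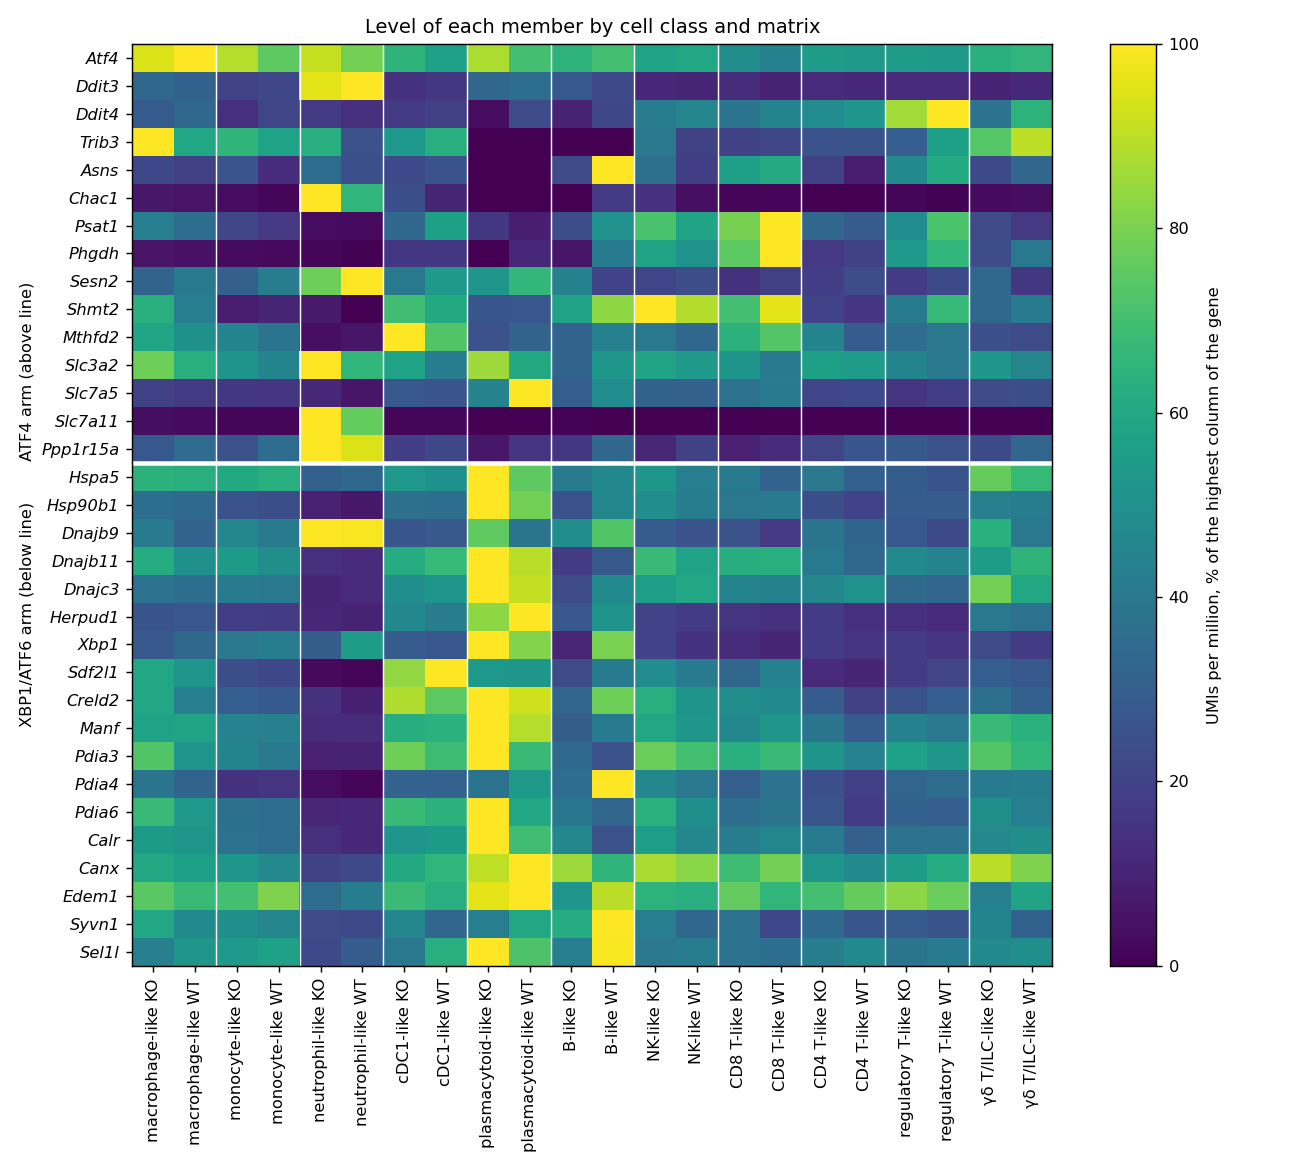
Rows are the 33 genes by arm and columns are the cell classes, with KO left of WT, and colour gives CPM as a percent of the gene's highest column. The neutrophil-like columns are high for Slc7a11, Ppp1r15a and Ddit3 and low for most ER chaperones, and the CD8 T-like columns are high for Phgdh and Psat1.

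Few of the genes were at least 1.5-fold apart between genotypes in other classes, among which Lyz2-cre is known to act in the myeloid ones. In NK-like cells 2 of 30 genes with enough UMIs were, against 5.03% of all genes. Asns stood at 7.64 in KO and 3.89 in WT (76 UMIs in KO and 48 in WT), and Ppp1r15a at 144 in KO and 270.2 in WT. In CD8 T-like cells it was 1 of 30 (background 7.9%), Syvn1 at 23.2 in KO and 13.6 in WT. In regulatory T-like cells it was 1 of 30 (4.82%), Shmt2 at 10.2 in KO and 16.8 in WT. In CD4 T-like cells it was 3 of 28 (6.63%), with ratios of 1.552 for Mthfd2, 1.548 for Creld2 and 1.540 for Pdia6. In gamma-delta T or ILC-like cells it was 2 of 21 (7.46%), Dnajb9 at 1.583 and Ddit4 at 0.588. In monocyte-like cells it was 1 of 27 (4.99%), Ddit4 at 26.9 in KO and 40.6 in WT. In neutrophil-like cells it was 2 of 20 (13.4%). Xbp1 stood at 148.5 in KO and 276 in WT neutrophil-like cells (ratio 0.537, interval 0.464 to 0.622), and Slc3a2 at 421 in KO and 278 in WT (1.518). In cDC1-like cells it was 2 of 28 (4.9%), Psat1 at 0.594 and Sel1l at 0.636. The 73 B-like cells (4 of 5 genes, 27.2%) gave ratios of 1.878 for Calr, 0.544 for Hsp90b1, 0.527 for Herpud1 and 0.490 for Ppp1r15a, and the plasmacytoid-like cells (1 of 12, 14.5%) gave 1.675 for Pdia6.

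No EGR2 peak lay within 1000 bases of the starts of these genes, as was so for nearly all genes tested. EGR2, the transcription factor named in the title of the study, averaged 143 ± 10.6 CPM in KO and 265 ± 9.54 CPM in WT at its transcript (SD, n = 3 each). The EGR2 lists held 4995 peaks in KO and 5408 in WT. Of the 33 genes, 0 had a peak within 1000 bases of the gene start in either list, against 0.788% of the genes tested in the KO list and 1.12% in the WT list. Within 10000 bases, 2 genes had one in the KO list (6.06%, against 6.95%) and 2 in the WT list (6.06%, against 8.32%). In the KO list these were Ddit4, 5270 bases away (chr10:59957040-59957540, mm10), and Slc7a5, 8722 bases away (chr8:121916416-121916916). In the WT list they were Slc7a5, 6857 bases away (chr8:121900337-121900837), and Creld2, 1466 bases away (chr15:88821112-88821612).

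ATAC regions lay near the genes at a share close to that of all genes. The merged ATAC list held 30189 regions, 12713 named for KO and 17476 for WT macrophages. It put 3 of the 33 genes within 1000 bases of a region (9.09%, against 8.47%) and 11 within 10000 bases (33.3%, against 34.9%). The region over the start of Dnajc3 (chr14:118937487-118937987) was named for KO, and those near Mthfd2 (396 bases away, chr6:83326304-83326804) and Pdia4 (418 bases away, chr6:47812512-47813012) were named for WT. The region at Dnajc3 holds the ER stress element printed above. Its score, the authors' own value for the region, stood at percentile 21.7 of the list. Regions and gene starts are on mm10, and a gene start is the outermost exon end in GENCODE vM10, which for Psat1, Mthfd2 and Slc3a2 lies over 1000 bases from the RefSeq start.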

How the data were processed

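The deposited bulk files hold raw counts per gene. Their header names featureCounts 2.0.6 and GENCODE vM10, and the submitters' processing notes name mm10. From 83.9% to 89.1% of the low counts were even, as when both reads of a pair are counted. The deposited single-cell matrices hold UMI counts, and their header names Cell Ranger 8.0.1. The deposited EGR2 and ATAC lists give a score per peak, taken as the authors' value. No header or label names a peak caller.

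The KO and WT libraries were compared on these counts in edgeR 4.0.16 (quasi-likelihood, TMM, filterByExpr, 2-sided, KO over WT, Benjamini-Hochberg over 12939 genes, R 4.3.3), which was tested on simulated data. Called means an adjusted p below 0.05. No 2 libraries of a group agreed within sampling noise. Values in every library are given for called genes changed at least 1.25-fold and for Atf4, Ddit3, Hspa5 and Xbp1. Companion genes are named when called and changed at least 1.5-fold, at most 4 per list, and other companions were named after their values were seen. Genes in single cells are named at a 1.5-fold ratio and 100 UMIs.

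Cells needed 500 genes, 1000 UMIs and at most 10% mitochondrial UMIs. Scrublet called 3.16% of KO and 4.91% of WT cells doublets, which were removed. Cells were clustered with scanpy 1.11.5 on 1998 variable genes (30 components, Leiden resolution 1) and named from fixed markers where the best score led by 0.05. Of the cells kept, 492 KO and 709 WT cells stayed unnamed. The labels give 2 single-cell samples per genotype and the files 1 matrix, listed under the first. Whether it also holds cells of the second is not stated, so each matrix was taken as 1 sample. The other chromatin samples were not analysed here.

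The genes and lists were chosen with earlier results of these data known. Alternatives were RLE factors, DESeq2 1.42.0, no filter, counts as read pairs, the replicate block, each library left out, other cell filters, and other peak windows. Library totals, genes of at least 50 CPM, and a score margin of 0.1 were chosen after seeing the data.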

Additional observations from a re-analysis of the deposited data

Results flagged for a closer look

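In 3 genes the ratio of KO over WT lay on opposite sides of 1 in different cell classes of over 1000 cells, by at least the fold used to name genes in bulk RNA and with both intervals leaving out 1. Other genes lay on opposite sides of 1 by less. Shmt2, the mitochondrial serine hydroxymethyltransferase, had a ratio of 1.49 in macrophage-like cells and 0.609 in regulatory T-like cells, the second resting on 68 KO and 99 WT UMIs. Xbp1 had a ratio of 1.40 in NK-like cells and 0.537 in neutrophil-like cells, with 325 KO and 438 WT UMIs in the neutrophil-like cells. Pdia4, a disulfide isomerase, had a ratio of 1.27 in CD4 T-like cells and 0.793 in CD8 T-like cells. The difference was not tested in any of the 3, since each genotype has 1 matrix.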

How the results depend on the processing

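Of the values that answer a comparison, 193 under an alternative stayed close to the reported one, 28 moved and 2 turned sign. Scaling by library totals gave 10 listed genes lower, 4 higher in the ATF4 arm, 6 lower in the XBP1/ATF6 arm, 3 ATF4 companions lower and 7 ER companions higher, and log2 medians of 0.0696 for the ATF4 arm (a turned sign) and -0.0109 for the XBP1/ATF6 arm. It also turned the signs of Slc3a2 (0.0691), Hspa5 (0.00601) and Calr (0.0335). These shifts go with that scaling's median of 0.09 over all genes. Among genes of at least 50 CPM, 3 rose. Without a filter on low counts the XBP1/ATF6 arm median was -0.0873, while the median of all genes was 0.13.

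Leaving out each library gave 4 to 5 listed genes higher and 12 to 15 lower, and medians of -0.0355 to 0.0126 for the ATF4 arm and -0.107 to -0.0828 for the XBP1/ATF6 arm. The positive value for the ATF4 arm (0.0126) came without KO replicate 3. Calls lost this way were Calr (any library), Creld2 (KO 1, KO 2, KO 3 or WT 3), Syvn1 (KO 1, KO 2, KO 3 or WT 2), Sesn2 and Dnajb11 (KO 1, KO 3, WT 1 or WT 2) and Mthfd2 (KO 2). Sdf2l1 gained one without WT 3 (adjusted p = 0.0157) and another with counts as read pairs (adjusted p = 0.0477). For single genes, 34 values lost their call and 3 gained one over all alternatives without a turned sign. Another 3 turned sign with library totals, where Hspa5 and Calr lost their call and Slc3a2 gained one.

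Replicate numbers did not pair the libraries, with correlations of same-numbered deviations between -0.000188 and 0.00664. With the replicate block 5 listed genes rose and 16 fell, and over all genes 2338 rose and 2353 fell.

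In single cells, centring on the median of all genes put the KO over WT ratio in macrophage-like cells at 0.937 for the ATF4 arm and 1.01 for the XBP1/ATF6 arm, and clustering with the listed genes put the XBP1/ATF6 arm at 1.08. Macrophage-like over T and NK-like cells, the ATF4 ratio was 1.45 with the looser and 1.45 with the stricter cell filter, 1.43 with doublets kept, 1.46 at Leiden resolution 0.5 and 1.44 with the listed genes clustered. The XBP1/ATF6 ratio was 1.27 with the looser filter, 1.27 with the stricter, 1.22 with doublets kept, 1.27 at resolution 0.5 and 1.27 with the listed genes clustered. In the window of 10000 bases 2 genes had an EGR2 peak in the KO list, 2 in the WT list, and 11 an ATAC region. Depth limits Chac1, Asns and Trib3, and 1 matrix per genotype limits every ratio in cells.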

Other observations

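The cells left unnamed also carried both arms. In cluster 18, led by Tm4sf1, Col3a1 and Sparc, the XBP1/ATF6 arm summed to 5797 CPM in the 33 KO cells and 5785 in the 67 WT cells, with intervals of 5584 to 6015 in KO and 5635 to 5938 in WT. This cluster had 2 detected markers of the epithelial or tumour list, too few to name it. In cluster 0, led by Sidt1, Xcl1 and Lef1, the ATF4 arm summed to 1090 CPM in the 459 KO cells and 1291 in the 642 WT cells, a ratio of 0.845 (0.809 to 0.882). The XBP1/ATF6 arm summed there to 3477 in KO and 3278 in WT, a ratio of 1.06.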
